A study of Populus x canadensis with 4 samples.

Results

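The miR396 family was examined in poplar leaf (Populus × euramericana 'Neva', a hybrid) over 4 doses of para-hydroxybenzoic acid. This phenolic acid can build up in soil and slow the growth of plants. A sequence was counted as miR396 when the number directly after miR or MIR in its deposited name was that of miR396 exactly, whatever the species prefix, arm or suffix. This gave 15 distinct sequences in 21 table rows, out of 529 sequences in 738 rows. All plants were rooted cuttings of the same poplar, grown in water culture for 90 days and then kept for 3 days in solution with 0, 2, 4 or 8 mM of the acid. RNA of the plants at one dose was mixed in equal parts before sequencing, so each dose is 1 library, no difference has a replicate check and no p-value is given. The 3 treated libraries are all set against the same untreated library.

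In plants, miR396 is one of the conserved leaf microRNAs. It guides the cutting of messenger RNAs for growth-regulating factors (GRFs), transcription factors that keep leaf cells dividing together with their GIF partners. More miR396 therefore generally goes with less GRF activity and smaller leaves in Arabidopsis, and there the TCP factor TCP4 promotes miR396 genes while being itself restrained by miR319. A microRNA is cut from a hairpin as a duplex of a 5p and a 3p strand, and the strand that is not loaded into an Argonaute protein is usually degraded. The 5p strand is the one that pairs with GRF transcripts. GRF transcripts were not analysed here.

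The mature 5p forms are shown first because most of the family's reads come from them. Sequences are printed as in the deposited table, with T for U, from 5′ to 3′, and capitals mark the seed, bases 2 to 8, which is central to target pairing. The first 6 lines share one seed or differ from it at a single base.
ptc-miR396c: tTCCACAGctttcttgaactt
ptc-miR396a: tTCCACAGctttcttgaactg
ath-miR396b-5p_R+1: tTCCACAGctttcttgaacttt
gma-miR396a-5p_R+1: tTCCACAGctttcttgaactgt
ama-miR396-5p_R+1_1ss19CT: tTCCACAGctttcttgaatttt
ptc-miR396g-5p: tTCCACGGctttcttgaactt
gma-miR396a-5p_L+4: gATCTTCCacagctttcttgaactg
ptc-miR396f_L+1R-1: tTTCCACGgctttcttgaact

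With positions counted from 1 at the 5′ end, ptc-miR396a and ptc-miR396c differ only by G21T, at the last base and outside the seed. The substitution A7G, inside the seed, separates ptc-miR396c from ptc-miR396g-5p. The 22 nt forms add 1 base at the 3′ end, where ath-miR396b-5p_R+1 holds the whole of ptc-miR396c and gma-miR396a-5p_R+1 the whole of ptc-miR396a. The form ama-miR396-5p_R+1_1ss19CT differs from ath-miR396b-5p_R+1 by C19T. The 25 nt form gma-miR396a-5p_L+4 is ptc-miR396a with 4 more bases at its 5′ end, which moves its seed. ptc-miR396f_L+1R-1 starts 1 base before ptc-miR396g-5p, with no other difference where they overlap, and so also has a shifted seed. Together with ath-miR396b-5p_R+2, of 23 nt, these make 9 sequences of the 5p arm, each sharing a stretch of at least 10 bases with ptc-miR396c, the most abundant member by mean level.

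The other 6 sequences carry 3p or p3 in their names. The most abundant 4 of them are shown because their levels differed with the dose in another way than those of the 5p arm. Capitals again mark bases 2 to 8.
ptc-MIR396a-p3 and ptc-MIR396b-p3, one sequence under both names: gTTCAATAaagctgtgggaag
ptc-miR396e-3p: cTCAAGAAagctgtgggaga
ptc-MIR396d-p3: cTCAAGAAagccgtgggaga
ptc-miR396g-3p_R-1: cTCAAGAAagccgtgggaaa

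Laid against ptc-miR396a, its partner by name, with 3′ overhangs of 2 bases, the first of these had 17 Watson-Crick pairs over 19 positions. It had a G-U pair at 1 more. Base 21, the only difference between ptc-miR396a and ptc-miR396c, lies in the overhang, so each 3p sequence pairs the same with both. Pairing therefore cannot tell which of the 2 a 3p sequence faces, and no hairpin sequences were used to place them. The same layout of ptc-miR396c gave 16 Watson-Crick pairs and 1 G-U pair over 18 positions with ptc-miR396e-3p, and 15 and 1 with ptc-MIR396d-p3. ptc-miR396g-5p and ptc-miR396g-3p_R-1 had 16 and 1 over 18. The 2 sequences ptc-miR396e-3p and ptc-MIR396d-p3 differ by T12C, and ptc-MIR396d-p3 and ptc-miR396g-3p_R-1 by G19A. Base 19 lies in the 3′ overhang, so ptc-MIR396d-p3 has the same 16 and 1 over 18 with ptc-miR396g-5p. It thus pairs better with ptc-miR396g-5p than with ptc-miR396c, although it is grouped with ptc-miR396c in the ratios below.

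The last 2 sequences are named p3 but lie off the usual 3p position. In the next lines capitals mark the bases shared with a 3p form.
mdm-MIR396d-p3: accatggaagCTCAAGAAAGC
csi-MIR396b-p3_1ss21TA: TGTGGGAAGatacaaacagga

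The first shares its last 11 bases with the start of ptc-miR396e-3p and begins 10 bases before it. The second shares its first 9 bases with the end of the ptc-MIR396a-p3 sequence and begins 12 bases after it. Both were scarce, with at most 26.7 normalized read counts in any library.

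The 4 libraries held 2640653, 4998878, 6369127 and 5310499 reads of listed sequences, in order of dose, so the untreated library is the shallowest. Levels below are the authors' normalized read counts. Intervals are 95% intervals, exact for folds and for ratios within a library, Wilson for shares and large-sample for the change of a ratio between libraries. They cover counting error only, since PCR copies cannot be told apart in these counts and reads are therefore not independent molecules. Setting all libraries to equal table totals instead would lower log2 ratios to the untreated library by 0.46, 0.57 and 0.40 at 2, 4 and 8 mM, and directions against the untreated library that turn under it are given where the value is described. By the deposited scaling the median log2 ratio over the 350 sequences that averaged 10 or more was 0.039, 0.034 and -0.022.

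The miR396 total stood at 40740, 94472, 53957 and 52068 normalized read counts in order of dose. It was thus highest at 2 mM, and the levels at 4 and 8 mM lay close together. Among 121 families by total it ranked 9 at 0 mM, 6 at 2 mM and 10 at both higher doses. Its share of all reads was 1.14% in the untreated library (1.12 to 1.15), 1.92% with 2 mM (1.90 to 1.93), 1.02% with 4 mM (1.01 to 1.03) and 1.10% with 8 mM (1.09 to 1.11). From 2 to 4 mM the total was 1.75-fold lower (1.73 to 1.77), a direction that equal table totals kept (log2 ratio -0.91). At 4 and 8 mM the total was above the untreated library by the deposited scaling and below it with equal table totals, at log2 ratios of 0.41 and -0.16 at 4 mM and 0.35 and -0.048 at 8 mM.

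The total joins strands that differed in opposite directions at 2 mM. The 9 sequences of the 5p arm summed to 34464, 91579, 50572 and 48268 normalized read counts in order of dose. The other 6 summed to 6277, 2893, 3386 and 3801. At 2 mM the 5p sum was 2.66-fold higher than in the untreated library (2.62 to 2.69) and the other sum 2.17-fold lower (2.07 to 2.27), both in the same direction with equal table totals. At 4 and 8 mM the 5p sum was above the untreated one by the deposited scaling (log2 ratios 0.55 and 0.49), but with equal table totals it lay just below at 4 mM and just above at 8 mM (-0.013 and 0.084). The other sum was below the untreated one at both doses under both scalings. The other sequences held 15.4% of the miR396 reads in the untreated library (15.0 to 15.8), 3.06% with 2 mM (2.95 to 3.17), 6.27% with 4 mM (6.09 to 6.46) and 7.30% with 8 mM (7.09 to 7.51). These shares compare reads within a library and do not depend on the scaling between libraries.

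**Figure D1:**
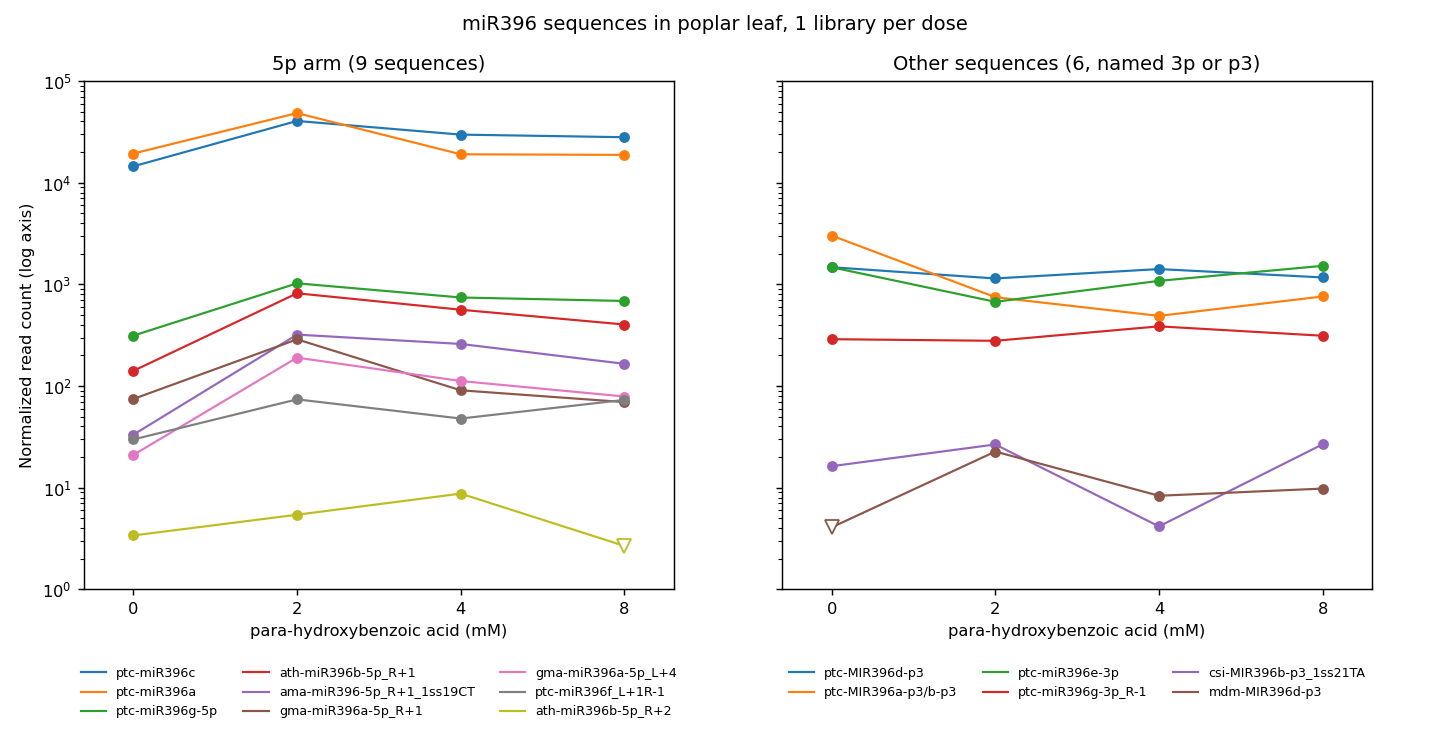
Normalized read counts (log axis) of each miR396 sequence by dose, with 5p sequences on the left and the others on the right; each point is 1 library, and an open triangle marks a listed 0 drawn at the level that 3 reads would give. The 2 most abundant 5p forms both peak at 2 mM and then part, while the ptc-MIR396a-p3 sequence goes from 3023 at 0 mM to 490 at 4 mM.

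Of the 15 sequences, 14 passed the filter, a mean level of 10 or more. The scarce ath-miR396b-5p_R+2 did not, and mdm-MIR396d-p3 passed through its level at 2 mM. At 2 mM, 9 of the 14 were at least 2-fold higher on the log2(value + 1) scale, where 20.9% of all 350 sequences were, and 2 were at least 2-fold lower, where 23.7% were. At 4 mM 6 were higher (18.9% of all) and 2 lower (25.7% of all). At 8 mM 6 were higher (14.9% of all) and 1 lower (21.4% of all). All 8 passing sequences of the 5p arm were past 2-fold at 2 mM and 5 at each of 4 and 8 mM. Equal table totals, under which 13 of the 15 passed the filter, left 6 higher and 2 lower with 2 mM (12% and 32.6% of all), 3 and 3 with 4 mM (10.3% and 36.3% of all) and 3 and 1 with 8 mM (9.43% and 31.4% of all). The median log2 ratio of the passing members was 1.40, 0.54 and 0.82 at 2, 4 and 8 mM, and 0.86, -0.15 and 0.30 with equal table totals. Near-identical members may share reads and are not independent.

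**Figure D2:**
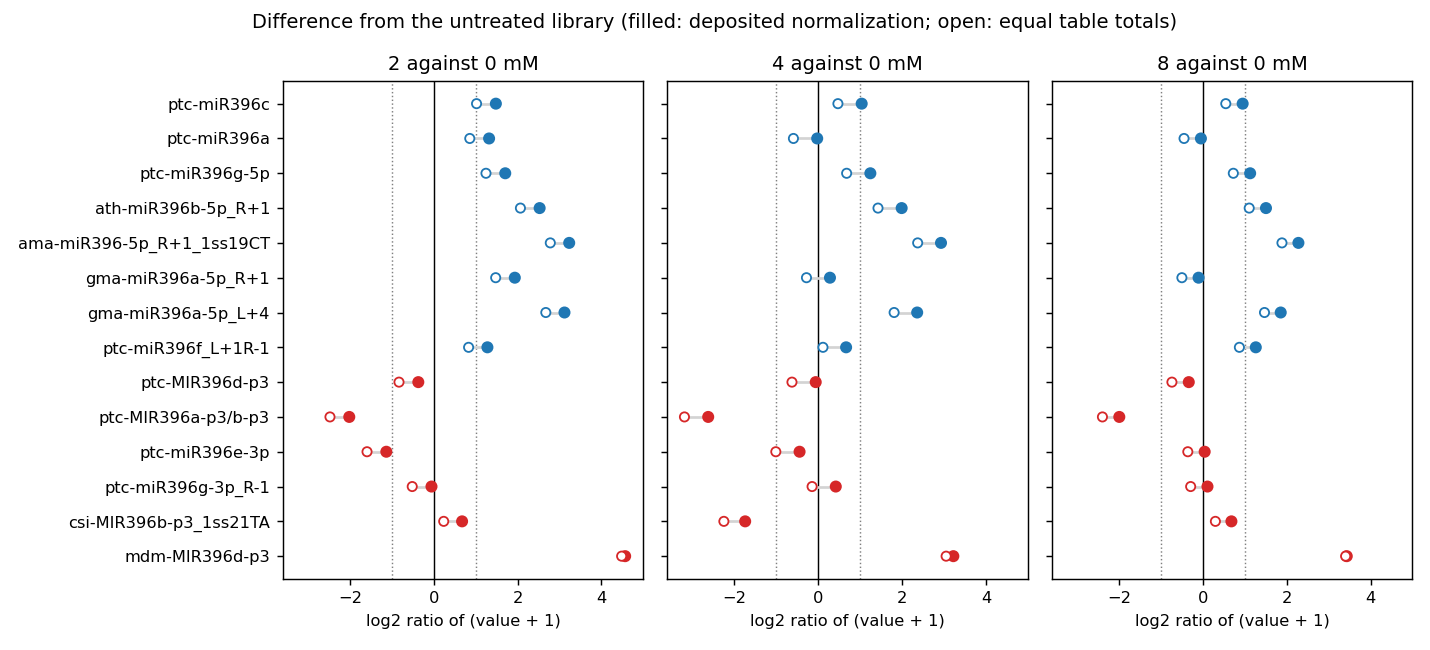
Log2 ratio of (normalized read count + 1) to the untreated library for the 14 sequences that passed the filter, at 2, 4 and 8 mM, with 5p sequences in blue and others in red; filled points use the deposited normalization, open points equal table totals, and dotted lines mark 2-fold. All 8 blue sequences lie right of 0 at 2 mM under both scalings, and the ptc-MIR396a-p3 sequence lies left of -1 at every dose.

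The main mature forms, ptc-miR396a and ptc-miR396c, parted above 2 mM. ptc-miR396a was measured at 19358, 48368, 19032 and 18774 normalized read counts in order of dose. It was high in the 2 mM library only, 2.50-fold above the untreated one (2.45 to 2.55). At 4 mM the fold was 0.98 (0.96 to 1.00) and at 8 mM 0.97 (0.95 to 0.99). With equal table totals its log2 ratios were 0.86, -0.59 and -0.45 at 2, 4 and 8 mM, so its nearness to the untreated level at the higher doses rests on the scaling. ptc-miR396c was measured at 14489, 40491, 29716 and 28017. It was 2.79-fold higher with 2 mM (2.74 to 2.86), 2.05-fold with 4 mM (2.01 to 2.10) and 1.93-fold with 8 mM (1.89 to 1.98), and higher at all 3 doses with equal table totals too (log2 ratios 1.02, 0.47 and 0.55). From 2 to 4 mM ptc-miR396a was 2.54-fold lower (2.50 to 2.58) and ptc-miR396c 1.36-fold lower (1.34 to 1.38).

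The order of these forms therefore changed. ptc-miR396a was the more abundant at 0 and 2 mM, and ptc-miR396c at 4 and 8 mM. Within a library there were 0.748 reads of ptc-miR396c for each read of ptc-miR396a in the untreated library (0.730 to 0.768), 0.837 with 2 mM (0.826 to 0.848), 1.56 with 4 mM (1.54 to 1.59) and 1.49 with 8 mM (1.47 to 1.52). Relative to 0 mM the ratio was 1.12 times as high with 2 mM (1.09 to 1.15), 2.09 times with 4 mM (2.02 to 2.15) and 1.99 times with 8 mM (1.93 to 2.06). These last values do not depend on how rows were summed, but the order does, since ptc-miR396c is listed in 3 rows and ptc-miR396a in 2. With 1 row of each read once, the ratios were 0.499, 0.558, 1.04 and 0.995. Both forms have fractional read numbers, read here as reads divided among entries before deposit.

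The ratio of the corresponding longer forms took the same order over the doses, on few reads. gma-miR396a-5p_R+1, which holds ptc-miR396a, stood at 74.6, 287.9, 90.8 and 69.5 normalized read counts. ath-miR396b-5p_R+1, which holds ptc-miR396c, stood at 141.05, 817.3, 563.01 and 402.9. The first returned at 4 and 8 mM to a level whose intervals to the untreated library include 1 (1.22-fold, 0.87 to 1.72, and 0.93-fold, 0.65 to 1.34), the former on the other side of 1 with equal table totals. The second was 5.79-fold higher with 2 mM (4.72 to 7.18), 3.99-fold with 4 mM (3.24 to 4.96) and 2.86-fold with 8 mM (2.30 to 3.57). The ratio of the second to the first within a library was 1.89 in the untreated library (1.35 to 2.67), 2.84 with 2 mM (2.48 to 3.26), 6.20 with 4 mM (5.06 to 7.66) and 5.79 with 8 mM (4.55 to 7.47). ath-miR396b-5p_R+1 is listed in 2 rows and gma-miR396a-5p_R+1 in 1, so the size of this ratio also depends on how rows were summed.

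On the other arm, ptc-MIR396d-p3 and ptc-miR396e-3p were set together against the ptc-MIR396a-p3 sequence. Their reads per read of it were more in every treated library than in the untreated one. This grouping is not settled by pairing. ptc-MIR396d-p3 pairs better with ptc-miR396g-5p. ptc-miR396e-3p pairs alike with ptc-miR396a and ptc-miR396c, as does the ptc-MIR396a-p3 sequence. The reads of ptc-MIR396d-p3 and ptc-miR396e-3p together, divided by those of the ptc-MIR396a-p3 sequence, gave 0.975 in the untreated library (0.919 to 1.04), 2.43 with 2 mM (2.23 to 2.65), 5.10 with 4 mM (4.67 to 5.58) and 3.54 with 8 mM (3.28 to 3.82). With ptc-miR396e-3p alone the ratio was 0.488, 0.900, 2.21 and 2.00 in order of dose. The 3 ratios of mature, longer and other-arm sequences were lowest at 0 mM and highest at 4 mM, as was that of ptc-miR396e-3p alone. The levels behind them differed. The sum of ptc-MIR396d-p3 and ptc-miR396e-3p, at 2948, 1816, 2497 and 2691 normalized read counts, was below untreated at every dose. Their ratio was higher in the treated libraries through the lower level of its divisor, whereas ptc-miR396c itself was above untreated. The pairs were chosen after their values were seen.

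**Figure D3:**
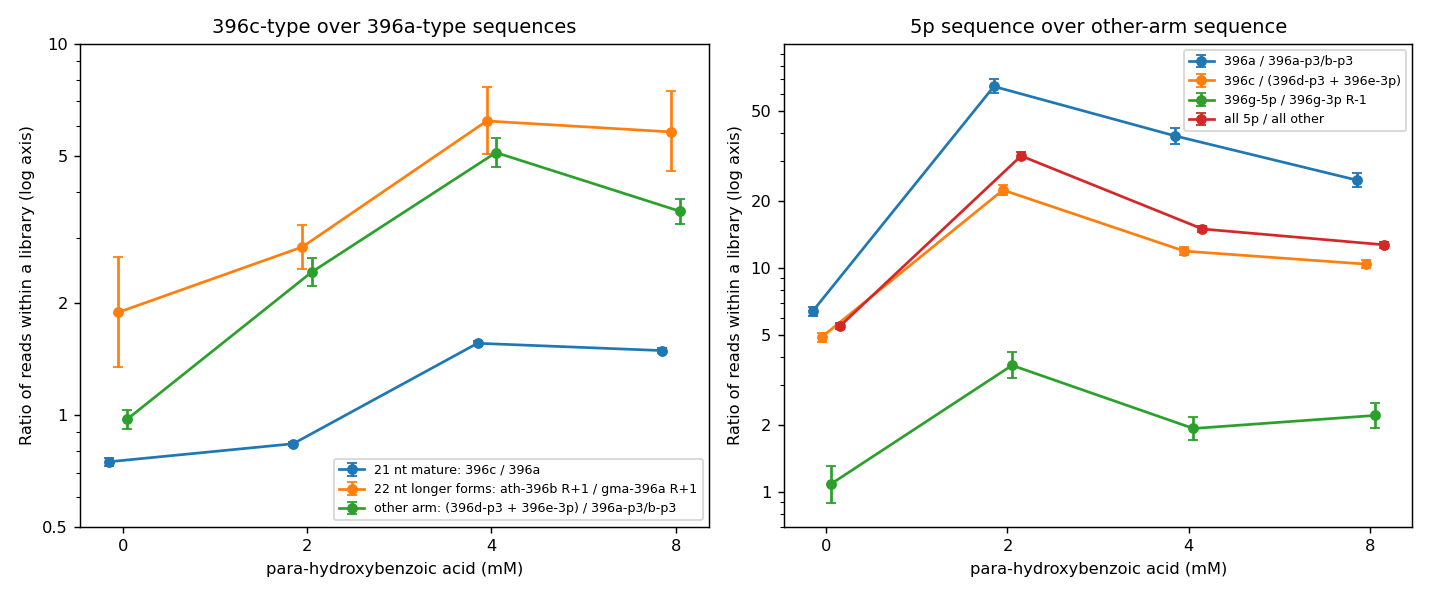
Ratios of reads within each library (log axes) by dose, with 95% exact intervals for counting error. The left panel divides ptc-miR396c, its longer form and ptc-MIR396d-p3 with ptc-miR396e-3p by ptc-miR396a, its longer form and the ptc-MIR396a-p3 sequence. All 3 lines peak at 4 mM. The right panel divides 5p by other-arm sequences, and all 4 lines peak at 2 mM. ptc-MIR396d-p3 is grouped with ptc-miR396c in both panels, though it pairs better with ptc-miR396g-5p. By pairing, ptc-miR396e-3p and the ptc-MIR396a-p3 sequence could each be grouped with ptc-miR396a or with ptc-miR396c.

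The rarer 5p forms that passed the filter were each higher at 2 mM than in the untreated library under both scalings. ptc-miR396g-5p, whose seed differs from that of ptc-miR396c at 1 base, was measured at 313, 1025, 743 and 687 normalized read counts. Its ratio to ptc-miR396c stayed narrow, at 0.0216, 0.0253, 0.0250 and 0.0245 at 0, 2, 4 and 8 mM, with intervals of 0.0189 to 0.0246 at 0 mM and 0.0238 to 0.0269 at 2 mM. It was 3.27-fold higher than untreated with 2 mM (2.83 to 3.79), 2.37-fold with 4 mM (2.05 to 2.75) and 2.19-fold with 8 mM (1.89 to 2.55). ptc-miR396f_L+1R-1, the form with the shifted seed, was low throughout, at 29.8, 73.9, 47.9 and 73.1.

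Among members with reads at both 0 and 2 mM, the folds at 2 mM were largest for 2 scarce 5p forms. ama-miR396-5p_R+1_1ss19CT stood at 33.2 normalized read counts without the acid and at 320.4, 259.4 and 165.3 with it. That is 9.64-fold (6.29 to 14.8), 7.81-fold (5.09 to 12.03) and 4.98-fold (3.21 to 7.75) above untreated. The 25 nt gma-miR396a-5p_L+4 stood at 21.02, 190.3, 112.02 and 78.9, which is 9.05-fold (5.26 to 15.6), 5.33-fold (3.08 to 9.32) and 3.75-fold (2.13 to 6.67) above untreated. Although this form holds the whole of ptc-miR396a, it stayed above the untreated level at 4 and 8 mM, where ptc-miR396a did not. Among the 350 sequences these 2 forms were at positions 12 and 15 from the highest ratio at 2 mM. ath-miR396b-5p_R+2, at 3.39, 5.42, 8.75 and a listed 0 normalized read counts, was too scarce for a comparison.

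Forms of 22 nt took a larger part of the 5p reads in the treated libraries. They held 0.722% in the untreated library (0.627 to 0.836), 1.56% with 2 mM (1.48 to 1.64), 1.81% with 4 mM (1.70 to 1.92) and 1.32% with 8 mM (1.23 to 1.42). Among the reads of ptc-miR396c and its longer form, the longer one made up 0.964%, 1.98%, 1.86% and 1.42%. For ptc-miR396a the same share was 0.384%, 0.592%, 0.475% and 0.369%, and the intervals in the untreated library (0.295 to 0.499) and 8 mM (0.296 to 0.460) overlap widely. Outside miR396, reads with names of longer 3′ ends made up 17.5%, 21.3%, 18.0% and 15.0% of the reads, lowest at 8 mM, and their part in the miR396 shares was not tested.

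The sequence ptc-MIR396a-p3, taken by its name as the partner strand of ptc-miR396a, was lower in every treated library. Its level was 3023, 748, 490 and 760 normalized read counts in order of dose. The treated libraries were below the untreated one by 4.04-fold (3.72 to 4.39), 6.17-fold (5.63 to 6.77) and 3.98-fold (3.67 to 4.31), and equal table totals widened the gap. Among 350 sequences its ratio was at positions 34, 16 and 26 from the lowest at 2, 4 and 8 mM.

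There were 6.40 reads of ptc-miR396a for each read of this partner strand in the untreated library (6.12 to 6.70), 64.6 with 2 mM (60.2 to 69.5), 38.9 with 4 mM (35.8 to 42.2) and 24.7 with 8 mM (23.1 to 26.5). Relative to 0 mM the ratio was 10.09 times as high with 2 mM (9.28 to 10.98), 6.07 times with 4 mM (5.53 to 6.66) and 3.86 times with 8 mM (3.55 to 4.19). At 4 and 8 mM, where ptc-miR396a was near its untreated level by the deposited scaling, the ratio differed mainly through the level of the partner strand. Both sequences are listed in 2 rows, so reading 1 row of each leaves the ratio as it is.

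The 3p strands ptc-MIR396d-p3 and ptc-miR396e-3p differed less from their untreated levels than the ptc-MIR396a-p3 sequence did. ptc-MIR396d-p3 stood at 1474, 1143, 1414 and 1170 normalized read counts. ptc-miR396e-3p stood at 1474, 673, 1083 and 1521. The latter was 2.19-fold lower with 2 mM (1.99 to 2.41) and 1.36-fold lower with 4 mM (1.26 to 1.48), and at 8 mM the fold was 1.03 (0.96 to 1.11), below 1 with equal table totals. At 0 mM both were listed with exactly 1087 reads, while at the other doses they differed, at 683 against 1159.5, 1300 against 1698 and 1707 against 1312.5. They differ by a single base and reads may have been shared between them, so their sum is safer, at 2948, 1816, 2497 and 2691 normalized read counts. The reads of ptc-miR396c per read of that sum were 4.91 in the untreated library (4.69 to 5.15), 22.3 with 2 mM (21.3 to 23.4), 11.9 with 4 mM (11.5 to 12.4) and 10.4 with 8 mM (10.03 to 10.8). That sum includes ptc-MIR396d-p3, which pairs better with ptc-miR396g-5p. ptc-miR396c is listed in 3 rows and the 2 strands of the sum in 1 each, so the size of these ratios depends on how rows were summed.

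With the strands grouped in 3 pairs as above, the g pair was the most even in every library. That rests on the grouping, since ptc-MIR396d-p3 pairs with ptc-miR396g-5p as well as ptc-miR396g-3p_R-1 does but was counted with ptc-miR396c. The level of ptc-MIR396d-p3 was 1474, 1143, 1414 and 1170 normalized read counts, against 313, 1025, 743 and 687 of ptc-miR396g-5p. ptc-miR396g-3p_R-1 was measured at 289, 279, 386 and 312 normalized read counts. The only one of its 3 intervals to the untreated library that left out 1 was that at 4 mM, at 1.34-fold (1.13 to 1.58), and equal table totals put it below untreated (log2 ratio -0.15), as they did the level at 8 mM (-0.29 in place of 0.11). Its 5p partner had 1.08 reads per read of this strand in the untreated library (0.896 to 1.31), 3.68 with 2 mM (3.22 to 4.20), 1.92 with 4 mM (1.72 to 2.16) and 2.20 with 8 mM (1.93 to 2.50). In all 3 pairs of strands the ratio of 5p to 3p was thus lowest in the untreated library and highest at 2 mM. Outside miR396, names of hairpin arms (MIR with p3 or p5) held 3.27%, 2.41%, 1.83% and 2.26% of the reads at 0, 2, 4 and 8 mM, also most at 0 mM, and their part in the miR396 result was not tested.

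The off-position sequences gave little to compare. mdm-MIR396d-p3 was listed at 0 reads at 0 mM, which allows up to 4.07 normalized read counts taken as at most 3 reads, and at 22.7, 8.33 and 9.80 at 2, 4 and 8 mM. Against that floor the level measured at 2 mM was at least 5.57-fold higher, and the exact interval, which also covers the counting error of the 23 reads at 2 mM, starts lower, at 4.18-fold. csi-MIR396b-p3_1ss21TA stood at 16.3, 26.6, 4.16 and 26.7, from 12, 27, 5 and 30 reads, and was low at 4 mM, 3.91-fold below untreated (1.28 to 14.2).

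Over the 4 libraries, the family totals nearest in shape to that of miR396 were those of miR394, miR1448, miR530, miR6424 and miR477, in this order. Likeness was the Euclidean distance between log2(total + 1) centred on its mean, among 39 other families whose total averaged 1000 or more. The distances were 0.298, 0.460, 0.475, 0.485 and 0.543. miR394, known for an F-box target that acts in the shoot meristem, was measured at 5691, 11567, 5744 and 6942 normalized read counts. Its log2 ratios to the untreated library at 4 and 8 mM were 0.013 and 0.29, and -0.55 and -0.12 with equal table totals. With 4 points that share depth and scaling, the likeness is a description only.

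**Figure D4:**
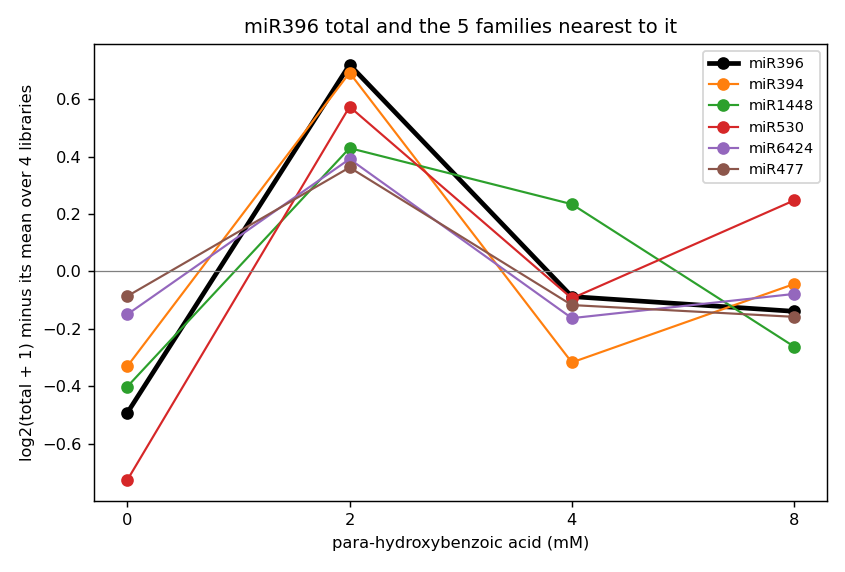
Log2(family total + 1) minus its mean over the 4 libraries, by dose, for miR396 (thick black line) and the 5 families nearest to it; each point is 1 library. All 6 lines are highest at 2 mM, and miR394 lies closest to miR396, at a distance of 0.298.

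Other microRNA families known from leaf growth had, as a list, medians near those of all sequences. Of 13 listed families, 12 had a sequence in the table, with 96 of their 139 sequences passing the filter. At 2 mM 19 were at least 2-fold higher and 23 at least 2-fold lower, where 20.9% and 23.7% of all sequences were. At 4 mM the counts were 15 and 23 (18.9% and 25.7% of all), and at 8 mM 12 and 21 (14.9% and 21.4% of all). With equal table totals 97 passed, and 8 were higher and 31 lower at 2 mM (12% and 32.6% of all), 8 and 38 at 4 mM (10.3% and 36.3% of all) and 8 and 34 at 8 mM (9.43% and 31.4% of all). Their median log2 ratios were 0.096, -0.048 and -0.085, beside the 0.039, 0.034 and -0.022 of all sequences, and with equal table totals -0.38, -0.60 and -0.51 beside -0.46, -0.55 and -0.45. miR319, the TCP regulator named above, was measured at 1202, 2600, 354 and 452 normalized read counts, so that it was high at 2 mM with miR396 but below its untreated level at 4 and 8 mM. miR164, which targets NAC transcription factors of the leaf margin, was measured at 36045, 40377, 23591 and 21917. Its level at 2 mM was above the untreated one by the deposited scaling and below it with equal table totals (log2 ratios 0.16 and -0.30).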

How the data were processed

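Per the submitters' processing notes, bcl2fastq 1.8.4 turned base calls into reads. No source used here gives the aligner, the counter, the reference build or the annotation. The raw columns hold estimated counts, often fractional, as deposited. The normalized columns, a signal on a linear scale that the authors made, are the raw columns multiplied by a single factor for each library (1.356, 0.986, 0.833 and 0.891 in order of dose).

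Rows that repeat a sequence were summed. Members were listed in 1 to 3 rows, so the size of a ratio or share between members with unequal numbers of rows depends on this summing. After summing, 22 of 60 miR396 values were still not whole within 0.002. Such reads are rounded for intervals. Ratios use log2(value + 1), a scale that shrinks differences of scarce sequences, and were counted at 2-fold for sequences with a mean of at least 10. With 1 library per dose no test was made, and precision rests on library depth. Sequences of the 5p arm share at least 10 bases in a row with the most abundant member. Every miR396 sequence could be named, and like families by smallest distance. The listed growth families were miR156, miR159, miR160, miR164, miR165, miR166, miR167, miR171, miR172, miR319, miR390, miR393 and miR394. Members, lists and rules were chosen with earlier results of these data known. Ratios within a library, length shares and hairpin-arm shares were added after the values were seen. Alternatives were another scaling, pseudocount, filter, row handling and choice of sequences. The 2-fold limit and the fold intervals were tested on simulated reads with counting error only and changes well past 2-fold. Shared reads, shares and ratios within a library were not covered by it. Python 3.11.15, scipy 1.17.1 and pandas 2.3.3 were used.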

Additional observations from a re-analysis of the deposited data

How the results depend on the processing

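The log2 ratio of the miR396 total was 1.21, 0.41 and 0.35 at 2, 4 and 8 mM. Equal table totals gave 0.75, -0.16 and -0.048, so the direction at 4 and 8 mM rests on the scaling. Leaving out ptc-miR396c, the most abundant form, gave 1.04, -0.11 and -0.13. The 5p arm alone gave 1.41, 0.55 and 0.49 (with equal table totals 0.95, -0.013 and 0.084, so that its direction at 4 mM turns), and the other sequences alone -1.12, -0.89 and -0.72. With 1 row per sequence read once the values were 1.10, 0.28 and 0.24, and median-of-ratios factors gave 1.19 at 2 mM. Pseudocounts of 0.5 and 10 left the total within its interval. Sequences at least 2-fold higher numbered 3 at 4 mM and 3 at 8 mM with equal table totals, against 6 and 6. Those at least 2-fold lower at 4 mM numbered 1 with a mean of at least 50 and 1 with a pseudocount of 10, against 2, and at 8 mM 2 without the filter, against 1.

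By form, ptc-miR396c held 35.6%, 42.9%, 55.1% and 53.8% of miR396 reads at 0, 2, 4 and 8 mM, the rest of its arm 49.03%, 54.1%, 38.7% and 38.9%, and the other sequences the remainder. With 1 row per sequence these became 24.4%, 31.8%, 41.1% and 39.9% for ptc-miR396c, 51.6%, 62.3%, 45.9% and 45.5% for the rest of its arm, and 24.04%, 5.90%, 13.01% and 14.6% for the other sequences. Leaving out a replicate was not possible with 1 library per dose. No paired analysis was possible because each dose was 1 library and the labels give no replicate numbers. The forms under 50 normalized read counts rest on few reads.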
